A study of Mus musculus with 24 samples.

Results

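The regions described here are stretches of mouse chromatin with an H3K27ac peak in the control limb bud list of E11.5 (days of embryonic development) and in the list labelled Sox9cKO, and with no peak in the control list of E12.5 or in the list labelled Sox9null. Overlapping peaks of the 4 lists merged into 49367 union regions, of which 3186 (6.45%) met this rule and are called the members. The mirror-image set, with peaks in the control E12.5 list and the list labelled Sox9null alone, held 1819 regions (3.68%) and is called the opposite pair. The members were chosen by the presence or absence of peaks in these 4 lists, so the scores, widths, coverage and presence of members are a description and carry no test.

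ChIP-seq of H3K27ac was done on limb buds from control embryos at E11.5 and E12.5, of Sox9null embryos at E11.5 and of Sox9cKO embryos at E12.5, with 1 library per group and no replicates. Sox9 is the transcription factor required for cartilage formation. The labels name no strain, no Cre driver or allele, no number of pooled embryos and not which limbs were taken, and the control genotype is given only as control. Kind of Sox9 deficiency and stage go together, so they cannot be told apart. For the Sox9-deficient libraries the file name and the sample title disagree, each list carrying the name of the other. By the deposited names the members are shared by both E11.5 lists and absent from both E12.5 lists. By the titles, which set the groups here, each pair mixes the stages, so the members are not called early regions. When lists were paired by the stage in the titles, 312 regions were shared by control E11.5 and labelled Sox9null alone. By the rule none of these can be a member, because a member has no peak in the list labelled Sox9null.

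The lists differed beyond the members. The control E11.5 list held 36045 peaks with a median width of 1141 bp, and the list labelled Sox9cKO held 36937 peaks with a median width of 1332 bp. The control E12.5 list held 32821 peaks of 1707 bp and the list labelled Sox9null 28419 peaks of 1778 bp, so the pair that holds the members had more and narrower peaks. On the Y chromosome, the lists held 15, 20, 6 and 3 peaks in the order control E11.5, labelled Sox9cKO, control E12.5 and labelled Sox9null, and this order is used for all values below. Sox9 itself was covered over 96.6%, 54.3%, 81.3% and 55.8% of its length, with uncovered stretches of 2533 and 2453 bp within the gene in the lists labelled Sox9cKO and Sox9null. The part of peak number, peak width or embryo sex in the member set was not tested. The depth in reads is unknown.

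H3K27ac is an acetylation of histone H3 placed by the enzymes p300 and CBP at active promoters and enhancers. It distinguishes active enhancers from poised ones, and its pattern changes as cells take on a fate. In the limb bud it marks enhancers of the genes that set limb type, the axes of the limb and the differentiation of cartilage. In tissue made of several cell types, fewer cells of a type and less acetylation per cell cannot be told apart.

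No genome sequence was used, so the members shown as sequence are those that overlap RefSeq promoter windows or miRNA genes (GRCm38.p6). A window runs from 250 bases before to 50 after a gene's start. The promoters below were chosen because they lie wholly within members at genes of ectoderm, blood vessel and red cell programmes described further on, and their capitals mark CpG dinucleotides. Sp8 encodes a zinc finger factor of the limb ectoderm needed for outgrowth, Tal1 a factor of blood and vessel precursors, and Epor the erythropoietin receptor.
Sp8, chr12:118846983-118847282, plus strand: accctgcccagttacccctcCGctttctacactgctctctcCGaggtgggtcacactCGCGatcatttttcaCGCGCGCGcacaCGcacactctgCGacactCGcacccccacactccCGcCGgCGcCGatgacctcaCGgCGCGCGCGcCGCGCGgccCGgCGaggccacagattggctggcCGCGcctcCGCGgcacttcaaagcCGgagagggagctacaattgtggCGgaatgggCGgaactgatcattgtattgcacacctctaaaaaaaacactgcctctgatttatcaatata
Tal1, chr4:115057561-115057860, plus strand: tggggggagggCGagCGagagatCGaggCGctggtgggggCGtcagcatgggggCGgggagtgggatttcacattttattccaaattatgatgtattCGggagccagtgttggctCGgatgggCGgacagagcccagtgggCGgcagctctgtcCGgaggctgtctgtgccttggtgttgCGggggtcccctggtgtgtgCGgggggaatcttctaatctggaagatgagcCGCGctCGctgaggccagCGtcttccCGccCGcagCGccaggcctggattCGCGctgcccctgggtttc
Epor, chr9:21963527-21963826, minus strand: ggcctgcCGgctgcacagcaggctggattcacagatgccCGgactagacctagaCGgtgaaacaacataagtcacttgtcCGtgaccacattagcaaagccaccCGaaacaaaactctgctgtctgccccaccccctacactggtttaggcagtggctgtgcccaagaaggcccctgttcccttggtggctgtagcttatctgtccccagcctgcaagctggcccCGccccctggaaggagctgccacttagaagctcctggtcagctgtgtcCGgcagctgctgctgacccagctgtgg
The Sp8 window held 32 CpGs at an observed to expected ratio of 1.19, and the Tal1 window 22 CpGs at a ratio of 0.758. The Epor window held 7 CpGs at a ratio of 0.266. Of 1005 miRNA hairpins, 167 overlapped a union region, 6 a member and 1 a region of the opposite pair. Over all regions, 6.45% were members and 3.68% of the opposite pair, so hairpins are not read as a trait of the members. The hairpins in members were Mir6546, Mir3092, Mir34b, Mir128-2, Mir6921 and Mir1932. Mature sequences are shown for a pair with well-studied families, with the seed (bases 2 to 8) in capitals; miR-34b belongs to a family induced by p53, and miR-128 is abundant in the brain.
mmu-miR-34b-5p, chr9:51103610-51103632, minus strand: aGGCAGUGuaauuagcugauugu
mmu-miR-128-3p, chr9:112118644-112118664, minus strand: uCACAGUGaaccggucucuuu
These seeds differ. The member at Mir34b scored 158.6 in the control E11.5 list and 272.23 in the list labelled Sox9cKO, and the member at Mir128-2 scored 66.48 and 91.45. All scores are the authors' own peak scores and rank peaks only within a list.

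Members were mostly narrow and of low to middle score. Their width ran from 281 to 17844 bp with a median of 1101 bp, against 1724 bp in the opposite pair, 2439 bp in the 19792 regions of all 4 lists and 1494 bp over all regions. The median best score was 85.6 in the control E11.5 list and 97.8 in the list labelled Sox9cKO, where all peaks had medians of 162.09 and 196.26. These medians lie at percentiles 31.4 and 31.6 of their lists. In 3077 members (96.6%) each list contributed 1 peak, and the stretch shared by both lists covered a median of 67.3% of the region.

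The share of a list's peaks that lay in members did not simply rise towards the lowest scores. In the control E11.5 list it was 11.6% in decile 1, the lowest by score, 17.7% in decile 3 and 16.4% in decile 5. It was then 9.51% in decile 6, 2.39% in decile 7 and 0.388% in decile 10, against 9.06% over the whole list. The list labelled Sox9cKO ran from 10.8% through 17.8% in decile 4 to 0.487% in decile 10, against 8.73% overall. In both lists the highest shares lay in deciles 3 to 5, and the shares from decile 6 up were below that of decile 1.

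**Figure D1:**
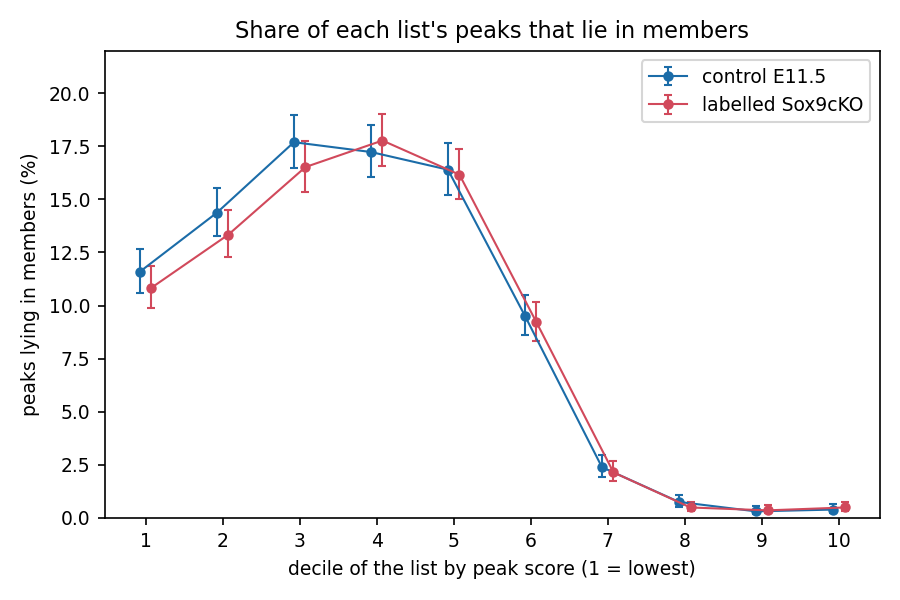
Share of the peaks of the control E11.5 list and the list labelled Sox9cKO that lie in members (%), by decile of each list by peak score (1 is the lowest). Points are shares and bars Wilson 95% intervals, which cover counting error only. The lists peak in deciles 3 and 4, at 17.7% and 17.8%, and fall to under 1% from decile 8 on.

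**Figure D2:**
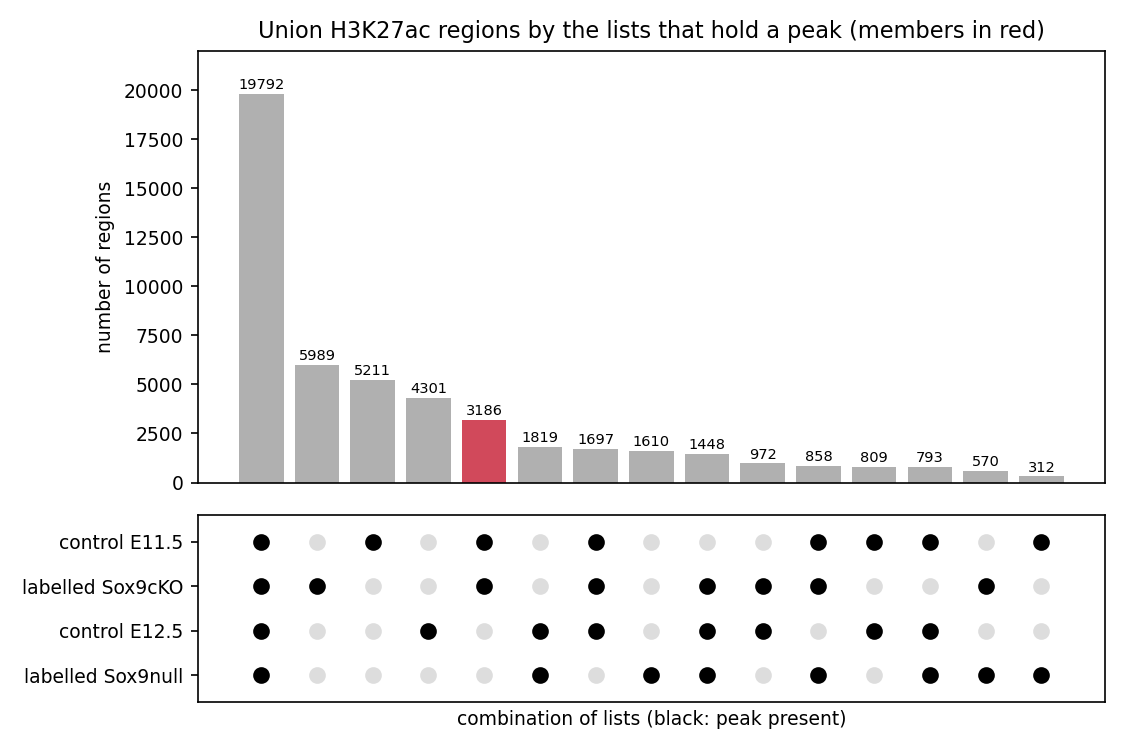
Number of union regions for each combination of lists that hold a peak, shown by black dots under the bars, with the members in red. The 3186 members come after the 19792 regions of all 4 lists and 3 of the 4 classes of 1 list alone.

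Many members lay close to the calling threshold of about 50. A best score under 60 in at least 1 of the holding lists was found in 931 members (29.2%), and in both lists in 144. At the other end, 184 members (5.78%) scored 200 or more in both lists. Just outside the rule lay 1697 regions kept out by a peak of the control E12.5 list alone, with a median score there of 94.3 and 215 of them (12.7%) under 60. The list labelled Sox9null alone kept out a further 858 regions, with a median score there of 76.7 and 178 (20.7%) under 60. The nearest peak of an absent list was within 1 kb of 224 members (7.03%), within 20 kb of 1813 (56.9%) and at a median distance of 15.2 kb.

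By position, most members, like most of all regions, lay inside genes or away from them. A member was counted at a gene start when it came within 1000 bp of the start of a RefSeq promoter window's gene, and at another gene end when it came within 1000 bp of either annotated end. Such windows exist for 17492 of the 21887 genes. For the rest, an annotated start counts as another gene end, so the gene-start shares of all sets are minimum values. Of the 3186 members, 535 (16.8%, Wilson 95% interval 15.5 to 18.1%) lay at a gene start and 257 (8.07%) at another gene end. Either annotated end alone, whether or not it was also such a start, lay within that distance of 702 members. Of the members at neither a gene start nor another gene end, 1202 (37.7% of all members) lay inside a gene, 475 (14.9%) up to 20 kb outside, 443 (13.9%) 20 to 100 kb outside and 274 (8.60%) over 100 kb away. Gene starts took up 20.6% of all regions, 42.0% of the regions of all 4 lists and 0.990% (0.627 to 1.56%) of the opposite pair. So the members lay between these sets, and the opposite pair had almost no promoters while 24.1% of it was over 100 kb from a gene. Members at gene starts also ranked higher, at a median mean percentile of 37.0 over both lists, against 28.0 for members inside genes. On the chromosomes, members were from 4.68% (chromosome 10) to 8.34% (X) of the regions, and 9 of 19 on Y.

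**Figure D3:**
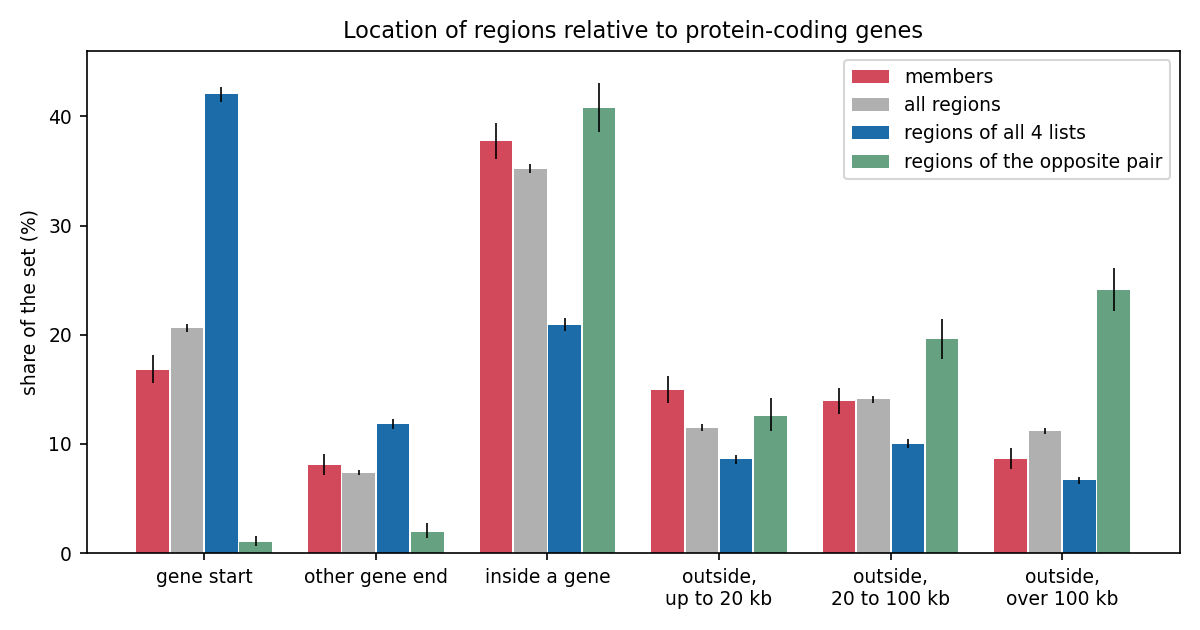
Share of regions (%) at a gene start, at another gene end, inside a gene or outside at 3 ranges of distance, for members (3186), all regions (49367), regions of all 4 lists (19792) and the opposite pair (1819). Bars start at 0 and error bars are Wilson 95% intervals covering counting error only. At gene starts members stand at 16.8% and the opposite pair at 0.990%.

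The CpG-rich share of promoters within members lay between those of all windows and of windows in regions of all 4 lists. A total of 557 RefSeq windows, of 499 genes, overlapped 494 members. Of these, 58.7% (Wilson 95% interval 54.6 to 62.7%) were CpG-rich, meaning an observed to expected CpG ratio of at least 0.6 and a GC share of at least 50%. The share was 74.7% (73.8 to 75.5%) for windows in regions of all 4 lists, 8.58% in windows outside every region and 45.1% over all 21263 windows. In the opposite pair 0 of 16 windows were CpG-rich. Taken over windows, the median mean percentile of the member was 38.4 at CpG-rich windows and 33.6 at the others. The CpG-rich windows lay in 296 members and the others in 209, so some of the 494 members held both kinds.

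Of 9 short motifs searched on both strands in these windows, the ETS core CCGGAA was in 13.6% of member windows, 30.7% of windows in regions of all 4 lists and 18.7% of all windows. The E-box CAGCTG was in 21.2%, 13.8% and 15.6%. The GC box GGGCGG was in 68.4%, 68.4% and 46.2%, and the CCAAT box in 33.8%, 38.2% and 38.2%. TATAAA was in 3.59%, 5.91% and 12.6%, the GATA motif AGATAA in 6.46%, 5.12% and 9.65%, and the SOX motif ACAAAG in 11.3%, 12.8% and 16.8%. The HOX and PBX motif TGATTNAT was in 2.15%, 1.01% and 2.75%, and the T-box motif AGGTGTGA in 0.718%, 0.619% and 1.15%. Base composition differs between these sets, and a match is only a description of the letters. In the windows shown above, Sp8 held the CCAAT box, the GC box and the HOX and PBX motif, Tal1 the GC box, and Epor the GC box, the E-box and the GATA motif.

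The strongest members inside a gene were at Tbx5, the T-box gene that sets forelimb identity and starts forelimb outgrowth. Of 10 members scored 3100, the most frequent top score, in both lists, 2 lay here. The first, chr5:119795135-119808473, spans 13339 bp across the left end of the gene. The second, chr5:119827886-119845729, spans 17844 bp inside it and is the widest of all members. Another member at chr5:119810784-119811797 scored 94.56 in the control E11.5 list and 101.2 in the list labelled Sox9cKO. Over the gene (119796514 to 119885220) and 20 kb on each side, peaks covered 31.7, 32.6, 3.76 and 0 kb. The control E12.5 list had a pair of peaks there, at 119865861 to 119868086 (score 279.31) and 119891055 to 119892585 (139.78), both clear of the members, and the list labelled Sox9null had none.

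Of the genes that set hindlimb identity, neither Tbx4 nor Pitx1 was nearest to a member. Tbx4 was covered by 29.7, 31.9, 34.4 and 38.1 kb and Pitx1 by 16.0, 17.5, 18.3 and 17.9 kb. Both were thus marked in all 4 lists, and were covered by more in each list without the members, while Tbx5 was covered by at least 31.7 kb in each list with them. Isl1, a further hindlimb regulator, was covered by 1.74, 1.8, 1.56 and 2.31 kb. The labels do not give the proportion of fore and hind limb buds in each library. Its part in the members, those at Tbx5 included, was not tested. Tbx3, the T-box neighbour of Tbx5 that acts in the posterior limb, was nearest to 5 members. The one with the best mean rank lay at chr5:119682268-119683941 (234.98 and 284.65), and another inside the gene scored 95.04 and 324.2. Tbx3 was covered by 12.4, 17.1, 10.5 and 9.22 kb.

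**Figure D4:**
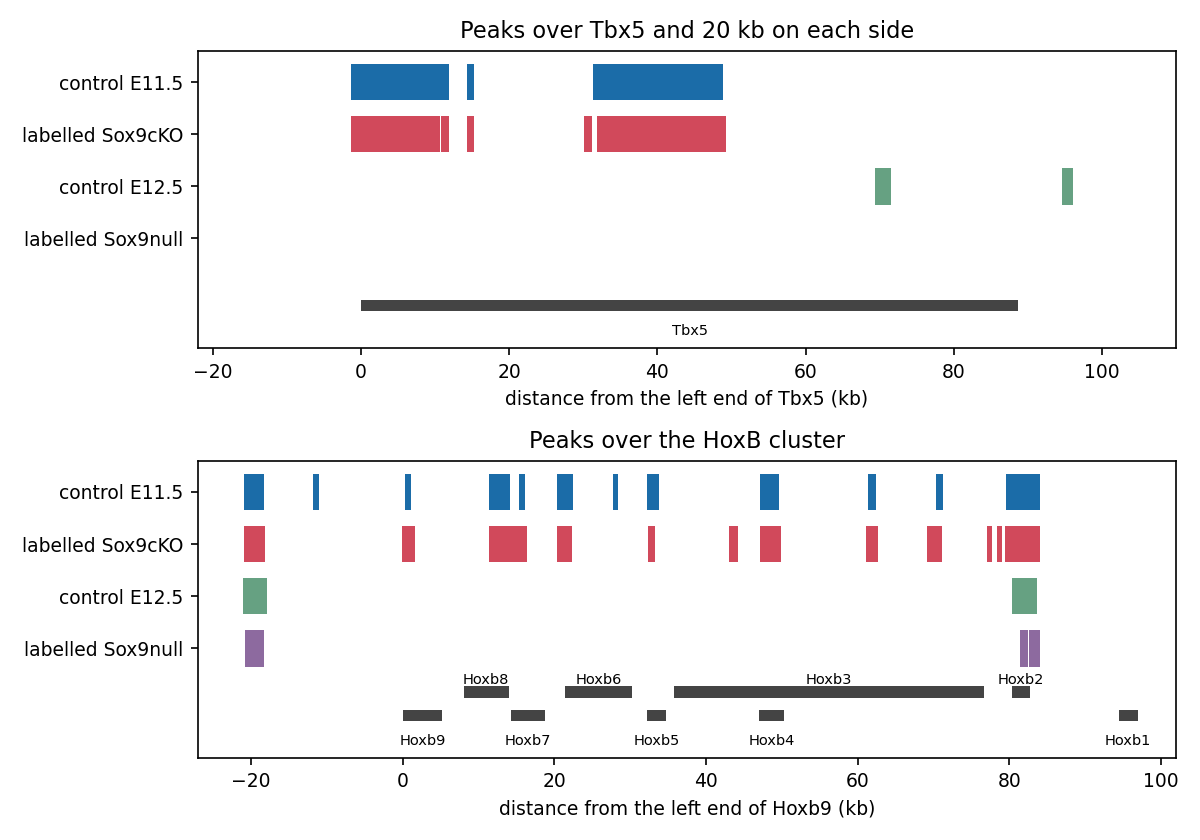
Peaks of the 4 lists over Tbx5 and over the HoxB cluster, drawn to scale as boxes against distance from the left end of Tbx5 or Hoxb9 (kb), with gene bodies in grey. The wide peaks over Tbx5 and those from Hoxb9 to Hoxb3 appear in the control E11.5 list and the list labelled Sox9cKO, and not in the other lists.

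A run of 7 members lay in the HoxB cluster, whose genes help set position along the body axis. The Hox genes were chosen for description after their values were seen. The run spans 71.3 kb (chr11:96271221-96342549), with members nearest to Hoxb3, Hoxb4, Hoxb5, Hoxb6, Hoxb8 and Hoxb9. The widest, chr11:96282664-96287754, spans 5091 bp across the right end of Hoxb8 and the left end of Hoxb7, and scored 366.66 and 1065.73. The member within Hoxb4, chr11:96318495-96321290, scored 249.67 and 677.4. Over Hoxb6 and 20 kb on each side peaks covered 10.3, 12.2, 0 and 0 kb, and over Hoxb4 5.65, 7.82, 0 and 0 kb. Hoxb5, Hoxb7 and Hoxb8 likewise had no peak in the control E12.5 list or the list labelled Sox9null. These windows overlap, so the genes share peaks. In all, 593 of 21887 protein-coding genes (2.71%) were covered in both holding lists and neither other list, against 53 (0.242%) the other way round.

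The other Hox clusters held fewer members than HoxB, where 7 of the 14 regions nearest to its genes were members. In HoxC 3 of 13 regions were members, nearest to Hoxc4, Hoxc6 and Hoxc8. Of these, chr15:103009208-103012757 at Hoxc6 scored 453.07 and 487.08. Hoxc4, known from forelimb buds, was covered by 12.4, 14.0, 4.26 and 4.52 kb, and Hoxc5, also a forelimb gene, by 13.4, 14.9, 5.07 and 5.16 kb. Hoxc10, known from hindlimb buds, was covered by 35.2, 37.5, 35.3 and 33.3 kb, and Hoxc11 by 33.2, 34.2, 35.7 and 34.6 kb. Coverage in both holding lists was thus above both others at the Hoxc4 end, while Hoxc11, Hoxc12 and Hoxc13 were below both. HoxA held 2 members among 15 regions, both nearest to Hoxa3. HoxD held 1 among 7, nearest to Hoxd3, at chr2:74749321-74750909 (550.87 and 518.98). The share of members in each cluster was above the 6.45% over all regions, on few regions. Coverage in both holding lists was above both others at 6 of 11 HoxA genes and 7 of 9 HoxD genes. It was below both at 0 and 1 of them. No region of the opposite pair was nearest to a Hox gene. Over all genes, 4594 (21.0%) were covered by more in each holding list than in each other list and 3409 (15.6%) by less.

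Outside Tbx5, the other 8 members scored 3100 in both lists lay outside protein-coding genes, the only genes used for location. A pair on chromosome 2 (98661889 to 98663150 and 98666086 to 98667590) lay over 1 Mb from the nearest gene, Lrrc4c, and the nearest peak of an absent list was at over 1.3 Mb. The others were nearest to Gm2244, Ly6c2, Tcte2, Esp38, Alkbh8 and Rpusd4. Members clustered most at the left end of the mapped part of chromosome 9, where 16 lay within 38.7 kb (2999852 to 3038570) at 332 kb or less from Alkbh8, with scores up to 3100 in both lists. Repeated sequence is a known source of read pile-up, as at chromosome ends and next to centromeres. Its part in this cluster and in the 8 members scored 3100 was not tested, so these are not read as distal enhancers. On the Y chromosome 8 members lay within 21.1 kb near Gm52481. With gaps of up to 20 kb allowed, the members formed 2886 stretches, of which 2663 held 1 member, 184 held 2 and 39 held 3 or more. The 11 stretches of 4 or more held 71 members, and 3115 members remained without them.

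Another stretch of 7 members lay by Gm15319 on chromosome 8, within 30.9 kb. The part of repeated sequence in this stretch and in the one on the Y chromosome was not tested either. A further dense stretch lay over Igdcc3 and Igdcc4, which encode cell-surface proteins of the immunoglobulin superfamily and were added after their values were seen. It held 7 members within 56.5 kb (chr9:65123227-65179764), the best scored at 65177637 to 65179764 (384.18 and 326.03). Igdcc3 was covered by 23.2, 24.4, 11.3 and 8.96 kb, so that the holding lists had more but the others were not bare. The nearest-gene count was highest for Alkbh8 with 16, Gm15319 with 15, and Gm52481 and Prdm16 with 8 each. Prdm16, a zinc finger regulator of several lineages, was covered by 40.0, 46.8, 30.7 and 19.4 kb. Zbtb16, a zinc finger gene that acts in limb and skeletal patterning, had 6 members and 12.6, 19.99, 7.29 and 7.88 kb, and its best member, chr9:48834263-48836601, scored 349.33 and 752.79. Glis1 had 6 members and 20.7, 25.8, 27.1 and 12.2 kb, so the control E12.5 list had the most there.

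At gene ends the best ranked members after Tbx5 lay at Aida (chr1:183295971-183299929, scores 3100 and 2826.34), whose product binds axin, and at Hoxb8. They were followed by Gm13212, the adhesion gene Cadm4 (525.89 and 596.4), Zbtb16, Ica1l, Hoxc6, Hoxb4 and 9030624G23Rik. At Aida the nearest peak of an absent list was 28.9 kb away.

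Of the 14295 protein-coding genes nearest to any region, 2519 (17.6%) were nearest to a member and 1179 (8.25%) to a region of the opposite pair. Over all 21887 genes, including those nearest to no region, these counts are 11.51% and 5.39%, the background for the counts of list genes below. Genes with wide neighbourhoods catch more regions, so gene lists are also read by the share of their regions that are members, against 6.45% over all regions, and of the opposite pair, against 3.68%. Of 23 lists, muscle precursor genes had the highest share of genes with a member, 10 of 18, and 1 of 18 with a region of the opposite pair. Members were 12 of the 87 regions nearest to these genes (13.8%), after 5 of 29 (17.2%) for erythroid genes and 3 of 20 for nerve and glia genes. Among cartilage matrix genes, 2 of 25 were beside a member and 6 of 25 beside the opposite pair, and members were 1.98% of 101 regions. The opposite pair made up 10.9% of the 128 regions of tendon and connective tissue genes, where members were 1.56%. Housekeeping genes had a member beside 1 of 15.

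**Figure D5:**
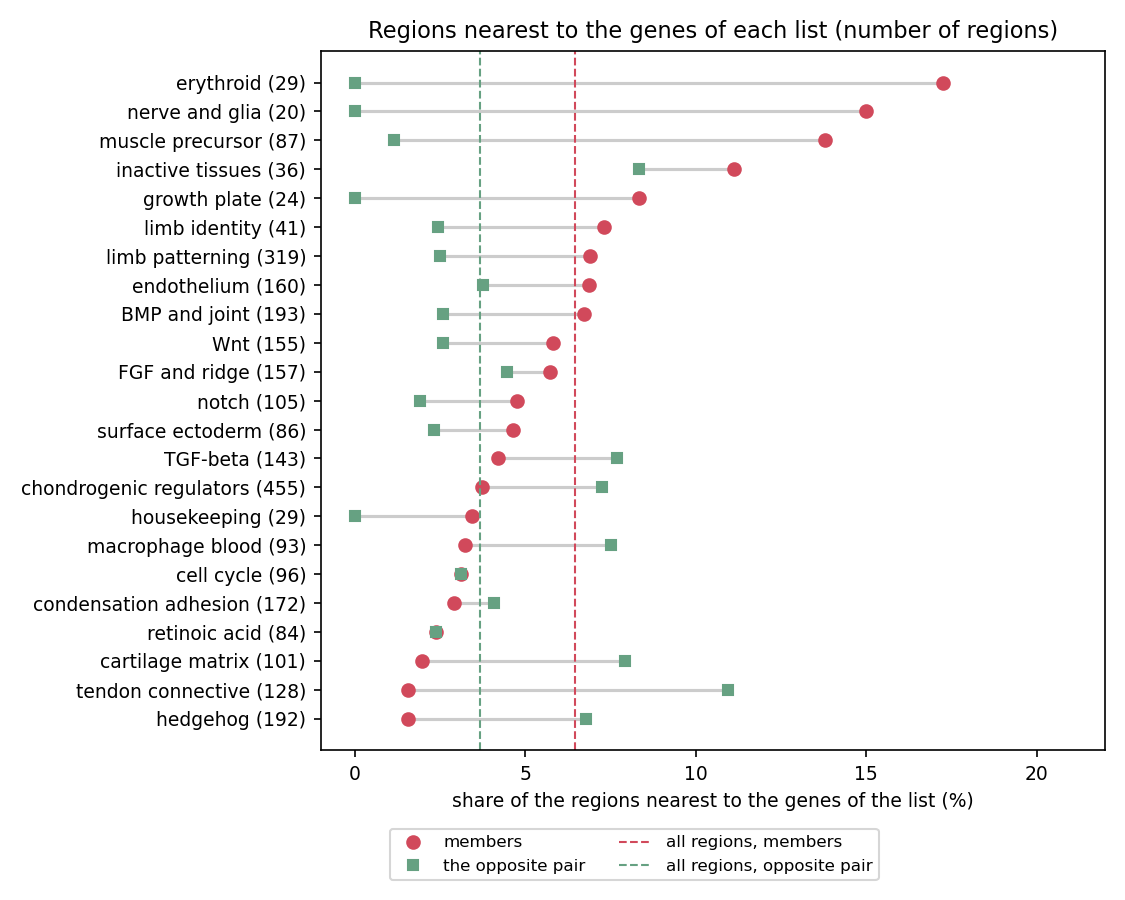
Share of the regions nearest to the genes of each list (%) that are members (red circles) or belong to the opposite pair (green squares), with the number of regions in brackets and the shares over all regions as dashed lines (6.45% and 3.68%). Regions of muscle precursor genes stand at 13.8% and 1.15%, those of cartilage matrix genes at 1.98% and 7.92%.

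Among muscle genes with a member, Pax3, which marks the cells that migrate from the somites into the limb, held a member inside the gene at chr1:78188838-78190480 (159.96 and 157.22) and was covered by 2.31, 3.80, 0 and 0 kb. Lbx1, needed for that migration, had members at chr19:45230166-45233397 (101.51 and 315.91) and chr19:45220725-45221575 (78.96 and 72.09), with 2.61, 6.37, 0 and 0 kb. The myogenic factor genes Myf5 and Myf6 share a window with 1.44, 2.66, 0 and 0 kb, and the member there is nearest to Myf6.

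Beyond these genes with peaks in both holding lists alone, Pax7 had a member 21.1 kb away (241.21 and 249.57). Further members lay by Eya1, Eya2 (2 members), Chrna1, Mymk and Myog. Myog, a factor of muscle differentiation, was covered in all lists, by 2.41, 2.54, 3.48 and 2.48 kb, and Myod1 by 0 kb in all. Summed over the 18 genes, coverage was 103, 130, 114 and 112 kb. Much of this sum came from Tnnt3, at 28.4, 30.5, 44.1 and 44.3 kb. In both holding lists, coverage was above both others at 7 of the 18 genes. It was below both at 1, Tnnt3. The number of genes of the list with no peak was 3, 2, 8 and 8.

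Endothelial genes were beside a member in 7 of 24 cases and beside the opposite pair in 4, and members were 11 of their 160 regions (6.88%), near the 6.45% over all regions. Tal1 had members at its start (chr4:115055964-115059884, 154.07 and 347.6), over the window shown above, and at chr4:115052160-115053349 (90.23 and 244.6). It was covered by 6.34, 5.54, 0 and 0 kb. Tie1, a receptor tyrosine kinase of vessels, had 2 members, the stronger inside the gene at chr4:118476707-118478304 (223.73 and 232.78), and 2.55, 2.72, 0 and 0 kb. The adhesion gene Pecam1, Cdh5, Fli1, Lmo2 (3 members) and Sox18 completed the set. Of these, Fli1 was covered most in the control E12.5 list, with 21.3, 24.8, 30.7 and 23.6 kb. At 11 of the 24 genes, coverage in both holding lists was above both others. It was below both at 3, Erg, Ets1 and Tek, with 8.41, 12.9, 30.4 and 19.3 kb over Erg. Summed over the list, coverage was 130, 152, 155 and 131 kb, and 3, 3, 7 and 9 genes had no peak.

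Blood genes gave a smaller set. Erythroid genes had a member in 4 of 15 cases (Add2, Ank1, Epor and Gfi1b) and the opposite pair in 0. The Epor member, chr9:21961642-21964223, scored 78.86 and 319.5. The control E11.5 peak covered only 345 of its 2582 bp, and the peak of the list labelled Sox9cKO all of it. Epor was covered by 2.09, 4.56, 1.59 and 1.95 kb. The erythroid list summed to 40.7, 56.2, 30.7 and 33.8 kb, with both holding lists above both others. Macrophage and blood genes had a member in 3 of 15 cases (Ptprc, Runx1 and Spi1), but members were 3.23% of their 93 regions and the opposite pair 7.53%. Ptprc, the CD45 gene of white blood cells, had 1 member and 6 regions of the opposite pair, and was covered by 0.581, 2.43, 4.97 and 6.15 kb. The list summed to 61.3, 57.1, 68.0 and 57.2 kb, with Itgam, Mrc1, Cd33 and Gata2 at 0 in all lists. The part of blood cells in the members was not tested.

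Surface ectoderm genes had a member in 3 of 17 cases and the opposite pair in 2, and members were 4.65% of their 86 regions, below the share over all regions. Tfap2c, an ectodermal transcription factor, held the best scored, chr2:172549290-172552162 (760.58 and 673.26), and had 3.33, 2.87, 0 and 0 kb. Epcam, an epithelial adhesion gene, had a member at its start (232.58 and 169.44), and Grhl2 one inside the gene. The list summed to 59.0, 75.8, 75.6 and 58.5 kb, with Krt14 at 0 in all. Nerve and glia genes were nearest to a member in 3 of 16 cases. In both holding lists, coverage was above both others at 4 of these genes and below both at 3. Tubb3 alone was covered only in the holding lists, by 0.721, 0.665, 0 and 0 kb. It was nearest to no member, though a promoter window of Tubb3 overlapped one. The member of Isl2 lay at a gene start, but those of Stmn2 and Sox2 lay 263 and 143 kb away. Stmn2 was covered by 0.746, 1.02, 1.52 and 1.35 kb, more in each list without the members. Sox2 and Foxd3 had no peak over the gene and 20 kb on each side in any list. The list summed to 20.6, 20.1, 20.3 and 17.3 kb.

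FGF signalling and ridge genes had a member in 6 of 21 cases and the opposite pair in 4, and members were 5.73% of their 157 regions. Sp8 stood out among them by a member over its start (chr12:118846512-118850051, 3540 bp, 231.77 and 366.24) and coverage of 3.93, 5.57, 1.11 and 0.701 kb. Among targets and feedback inhibitors of the pathway, Etv4 had a member inside the gene (213.65 and 250.77) with 4.99, 6.19, 3.45 and 1.8 kb, and Spry4 had 3 members with 11.03, 12.9, 7.74 and 7.43 kb. Spry2 (2 members), Spred2 and Sp6 had the rest. No member was nearest to an FGF ligand or receptor gene of the list.

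Limb patterning genes had a member in 10 of 36 cases and the opposite pair in 6, and members were 22 of their 319 regions (6.90%), near the share over all regions. The homeobox genes Meis1 and Meis2, which mark the proximal limb, had 3 members and 1. Meis1 was covered by 15.4, 19.04, 10.6 and 10.4 kb and Meis2 by 14.8, 18.6, 10.9 and 8.72 kb, with both holding lists above both others. Of the spalt genes, Sall3 had 4 members, 3 of them inside the gene on chromosome 18 with best scores of 194.49 and 287.19, and was covered by 12.2, 11.9, 3.19 and 3.49 kb. Sall1 had 2 members and Sall4 1, with smaller differences in coverage (16.5, 15.8, 15.4 and 15.4 kb over Sall1). Mecom had 3 members but was covered by more in the other lists (82.6, 95.05, 133 and 122 kb), and Shox2 and Tbx15 had 1 member each.

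In hedgehog signalling, members lay by the transducer Smo, the inhibitor Sufu and the effector Gli2, 3 of 12 genes, with none by the ligands of the list. The opposite pair was beside 4 of 12, and of the 192 regions of these genes 1.56% were members and 6.77% of the opposite pair, against 6.45% and 3.68% over all regions. The member inside Smo (chr6:29747548-29749270) scored 918.11 and 699.07, yet coverage of Smo was near equal at 8.57, 10.02, 8.08 and 8.32 kb. Wnt genes had a member in 6 of 20 cases and the opposite pair in 3, with 5.81% of 155 regions as members. The ligand gene Wnt3, which acts in the limb ectoderm, had 2 members and 2.34, 2.19, 0 and 0 kb. Rspo2, a secreted enhancer of Wnt signalling in the ridge, had 2 members (best 202.71 and 274.99) and 2.74, 3.68, 1.16 and 1.68 kb. Of the nuclear effectors, Tcf7 and Lef1 had 1 each, and the feedback inhibitor Axin2 had 2. In Notch signalling members lay by the ligands Dll1 and Jag2 and the receptors Notch1 and Notch3, 4 of 13, and were 4.76% of 105 regions, with 4.84, 6.33, 1.93 and 2.66 kb over Jag2.

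BMP and joint genes had a member in 7 of 21 cases and the opposite pair in 4, and members were 13 of their 193 regions (6.74%), near the share over all regions. By role the genes with a member were the ligands Bmp4, Bmp7 (3 members) and Gdf6 (2), the receptor Bmpr1b (2), the antagonist Nog and the targets or inhibitors Id2 and Smad6 (2 each). Gdf6, a ligand of joint formation, was covered in the holding lists alone, by 2.31, 2.59, 0 and 0 kb, with a member at a gene end (chr4:9843475-9844899, 174.24 and 281.27). Bmp7 was covered by 28.5, 31.4, 25.3 and 21.9 kb. Nog and Bmpr1b went the other way in the control E12.5 list, with 2.004, 1.89, 5.98 and 2.07 kb over Nog. TGF-beta genes had a member in 4 of 12 cases (Tgfbr2, Tgfbr3, Smad2 and Smad3) and the opposite pair in 4, at 6 and 11 of 143 regions, and retinoic acid genes in 2 of 12 (Aldh1a3 and Rarg) and 2.

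Chondrogenic regulators had a member in 12 of 26 cases and the opposite pair in 11. These genes have wide neighbourhoods, and members were 17 of their 455 regions (3.74%), below the 6.45% over all regions. Sox9 had 2 members, both far away at 331 kb (63.45 and 96.58) and 195 kb (72.67 and 104.64). Sox4 had 3, at 173 to 307 kb, and Runx2 and Nfix had 2 each inside the gene. Sox8, a close relative of Sox9, was the only gene of this list with a member at its start (266.56 and 236.1) and was covered by 8.45, 8.55, 6.61 and 4.71 kb. Summed coverage of the list was 318, 328, 469 and 386 kb.

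The 2 cartilage matrix genes with a member were Col9a1, a cartilage collagen with a member in 20 to 100 kb distance (82.54 and 66.81), and Snorc, a chondrocyte proteoglycan with one at a gene end (81.04 and 73.99). The list summed to 116, 113, 205 and 130 kb, with the most in the control E12.5 list. Tendon and connective tissue genes had a member in 2 of 15 cases (Egr2 and Tcf4) and the opposite pair in 6, and condensation and adhesion genes in 3 of 15 (Ncam1, Postn and Tnc) and 6. Growth plate genes had a member in 2 of 12 (Dlx3 and Spp1), at 2 of their 24 regions (8.33%) and with none of the opposite pair. Cell cycle genes had a member in 3 of 15 cases (3.13% of 96 regions), and genes of inactive tissues in 4 of 16 (among them Ins2, Tnp1 and Vil1). Of the 36 regions nearest to genes chosen as inactive in limb, 4 (11.1%) were members, so shares of that order are not read as a property of a programme.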

How the data were processed

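H3K27ac chromatin was sequenced from mouse limb buds, with 1 library in each of 4 groups; 20 of the 24 libraries of the series were not analysed here. The authors deposited 1 peak list per library, with a position and a peak score; the peak names within the lists name MACS as caller. Per the submitters' processing notes the build was mm10, with CASAVA 1.8 and deepTools; the MACS settings, the aligner and any use of inputs were not given in the sources used here.

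Peaks sharing at least 1 bp were merged over the lists (Python 3.11.15, pandas 2.3.3). The nearest of 21887 protein-coding genes (RefSeq, GRCm38.p6) was the one overlapped or at the smallest gap. Coverage is kb of peaks in a window of the gene with 20 kb either side. Strand and starts came from promoter windows, present for 17492 genes. Wilson intervals used SciPy 1.17.1. All 392 genes of 23 lists were matched. Without replicates no test between conditions was run, and intervals cover counting error only. The counting was tested on simulated lists.

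The members and gene lists were chosen with earlier results of these data known. Named are the 10 members with the best mean rank, the 10 widest, the 10 best ranked at gene ends, the 10 genes nearest to most members (16 with ties), the 10 genes covered most in the holding lists alone, and list genes with a member, except a few that are not reported here. Of the last 10, Frmd5, Srcin1 and 4930467E23Rik had 5.37, 4.31 and 3.72 kb in the list with less; Cux2, Abcc4, Frg1, Lrrc4c, Prex1, Ptpru, Sfi1 and Wwox had 5 or 6 members each. Hoxc5, Hoxc10 to Hoxc13, Tbx4, Pitx1 and Isl1 were named after their values were seen. Alternatives were score, number, merging, overlap, distance and assignment rules.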

Additional observations from a re-analysis of the deposited data

How the results depend on the processing

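The count of 3186 members was 1947 when each list was cut to equally many top peaks, 1871 with peaks scored 100 or more, and 312 with lists paired by the stage in the titles. Leaving out 1 list in turn gave 4073 to 9286. Members within 1000 bp of either annotated gene end, 702, numbered 1115 keeping the better scored 50% of each list and 13 by title pairing, and 874 to 1243 with a list left out. Genes nearest to a member, 2519, numbered 1670, 1636 and 286 with equally many top peaks, scores of 100 or more and title pairing, and 3055 to 5183 with a list left out. Genes covered in the holding lists alone, 593, numbered 963 with the upper 50%, 16 by title pairing and 312 with 100 kb on each side, and 748 to 927 with a list left out. The 2308 regions found with the upper 50% are largely others: 248 (10.7%) overlapped a member and 48.3% lay at a gene end, since absence there means a low score. Of the 1947 regions, 1649 (84.7%) overlapped a member. The remaining alternatives moved the 4 counts by less than 1.5 times. Scores of 100 or more, title pairing being apart, left 95 of 148 named genes with a member, and the upper 50% left 71. Scores of 100 or more, dense stretches, far regions and all alternatives for covered genes were added after the data were seen. No paired analysis was possible because each group has 1 library, and peak lists without reads do not show depth.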
